A study of Mus musculus with 4 samples.

Results

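miR-210 is a microRNA (miRNA), a short RNA that lowers the output of messenger RNAs carrying a match to its seed, bases 2 to 8 of the mature strand. It was chosen by its name on the array, mmu-miR-210, and because it was strongly higher at passage 1 in these data, and it is 1 of 611 mouse miRNAs measured. The samples were neural stem and progenitor cells made from mouse embryonic stem cells and cultured as neurospheres, which are free-floating balls of proliferating neural cells. Passage 0 (primary neurospheres) was sampled at day 6 of culture from embryoid bodies and passage 1 (secondary neurospheres) at day 12. Cells of an NFIA overexpression (OE) line and control cells, the latter labelled WT, were grown together in mixed spheres and separated by fluorescence-activated cell sorting. NFIA is a DNA-binding factor that helps start astrocyte formation from neural progenitors. Each of the 4 combinations of passage and cell line was measured on 1 array, so no group had a replicate. What drives NFIA overexpression, the number of clones and cultures behind each sample and the oxygen level are not given in the sources used here, and no sample was labelled as hypoxic.

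The labels contradict each other about NFIA. At either passage the array whose title reads control has a source name that gives the NFIA OE line, and the array whose title reads NFIA OE has one that gives WT. Groups follow the titles here and are written "titled control" and "titled NFIA OE". By the source names every title difference would have the opposite sign, while the passage comparison would stay as it is. The arrays hold no value for NFIA itself that could check either label.

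miR-210 is the miRNA most regularly induced when cells lack oxygen. The hypoxia-inducible factors switch on its gene, and the mature miRNA lowers proteins of mitochondrial respiration, among them the iron-sulfur cluster scaffold Iscu. In neural tissue it is known mainly from work on ischaemia and on progenitor proliferation. The mouse gene Mir210 lies on the minus strand at chr7:141221384-141221493 in RefSeq's GRCm38.p6. In the gene table of that assembly its nearest neighbours are Rassf7 on one side and Gm51460 and then Phrf1 on the other, and none of the 3 genes on either side is another miRNA.

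The RefSeq hairpin of 110 bases is given 5′ to 3′ with the arm that the array name stands for in capitals, because both arms can become mature miRNAs and the array name carries no arm suffix. That name is the older form of miR-210-3p, which fills bases 66 to 87 of the hairpin.
Mir210 hairpin: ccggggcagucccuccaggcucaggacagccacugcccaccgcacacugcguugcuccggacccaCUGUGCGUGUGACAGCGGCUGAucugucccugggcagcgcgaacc

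The 2 mature arms from RefSeq follow with the seed in capitals, to show that the seeds differ.
miR-210-3p: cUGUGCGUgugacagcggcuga
miR-210-5p: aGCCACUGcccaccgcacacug

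Of 1679 mature mouse miRNA sequences in the RefSeq table, only 1 had the seed UGUGCGU, miR-210-3p itself, so no other miRNA in that table shares it. Its seed holds a CG pair, as did the seeds of 13.0% of these sequences. The mature strand was 63.6% G and C, against a median of 52.2% over the table.

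miR-210 was read by 2 probes, A_54_P1443 and A_54_P1444, each printed as 10 spots on every array. All 20 spots were well above background on each of the 4 arrays and none was saturated (0). One spot of A_54_P1444 on the primary array titled control and 1 of A_54_P1443 on the primary array titled NFIA OE carried an outlier flag and were left out. Values are processed intensity, the spot's brightness after background subtraction by the scanner software, on a linear scale.

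On the primary array titled control, A_54_P1443 ran from 97.1 to 118 units (median 106, n = 10 spots) and A_54_P1444 from 51.5 to 60.7 (median 55.2, n = 9). On the primary array titled NFIA OE the ranges were 66.6 to 86.1 units (median 77.2, n = 9) and 29.2 to 44.8 (median 39.7, n = 10). These are dim spots, though above the mean negative-control level of 2.77 to 3.74 units per array. On the secondary array titled control they were 1081 to 1276 units (median 1186, n = 10) for A_54_P1443 and 624 to 739 (median 703, n = 10) for A_54_P1444. On the secondary array titled NFIA OE they were 736 to 836 units (median 808, n = 10) and 410 to 467 (median 448, n = 10). For each probe the secondary spots lay above all primary spots. Within each passage the spots of the array titled NFIA OE lay below those of the array titled control, with no overlap for either probe, as measured and after the scaling described next. The coefficient of variation over the spots of a probe was 4.64% to 8.27% except for A_54_P1444 on the primary array titled NFIA OE, the dimmest reading, where it was 11.8%. Spots of 1 array share 1 labelled RNA, so their spread is technical and says nothing about cultures.

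**Figure D1:**
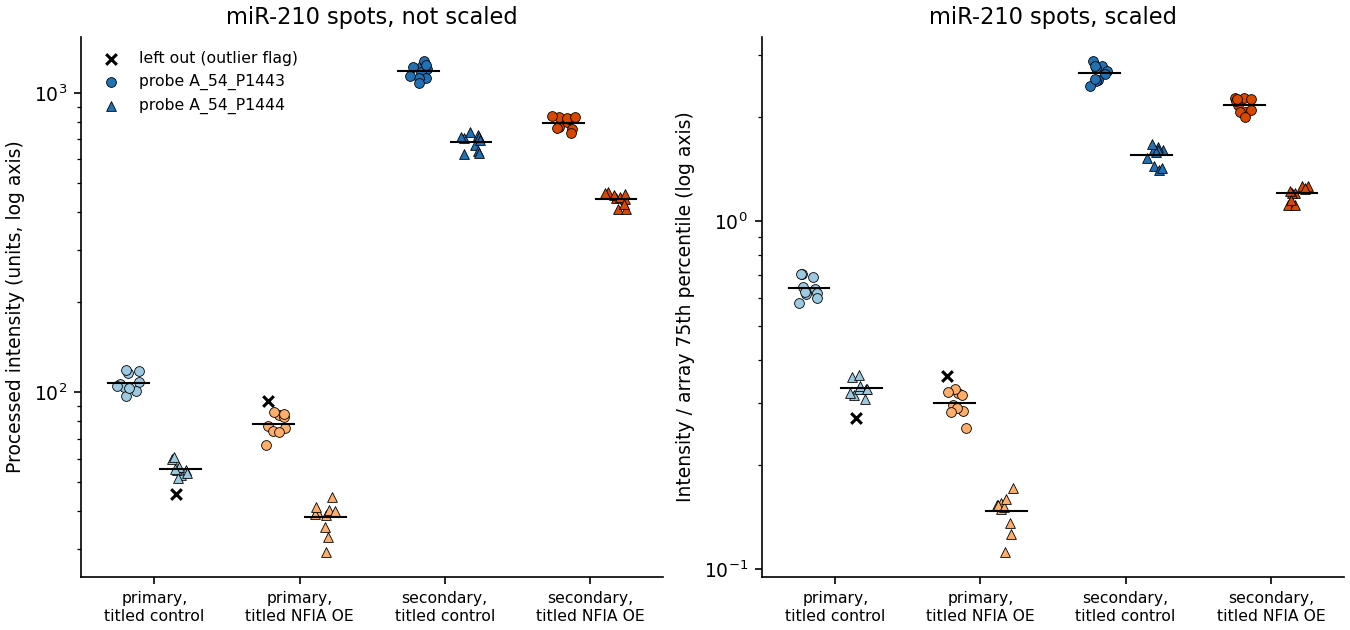
Every miR-210 spot on the 4 arrays, for both probes (circles A_54_P1443, triangles A_54_P1444), as processed intensity (left, log axis) and after division by the array's 75th percentile (right, log axis); bars mark the mean of the spots used and crosses the 2 spots left out. The secondary arrays lie above the primary arrays in both panels, and the primary array titled NFIA OE is the lowest.

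The arrays differed in overall brightness. Among the 252 probes detected on every array, the 75th percentile was 167 units on the primary array titled control, and 261 on the primary array titled NFIA OE. On the secondary arrays it was 443 (titled control) and 369 (titled NFIA OE). To put the arrays on 1 scale, each was divided by that percentile, and a miRNA's level is the mean log2 value of its probes on that scale. A total of 153 mouse miRNAs were detected on all 4 arrays. All arrays were on 1 slide, where the row of the array went with passage and the column with title, so position and group cannot be told apart. In bulk samples such as these, fewer cells of a type and less RNA per cell cannot be told apart either.

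On this scale the order of the miR-210 levels was secondary titled control at 1.02 log2 (standard error, SE, over spots 0.02), secondary titled NFIA OE at 0.69 (0.02), primary titled control at -1.11 (0.02) and primary titled NFIA OE at -2.25 (0.03). A linear fit of title and passage as additive terms gave a residual SD over all 153 miRNAs of 0.29 log2 for 1 array. That is 0.42 for the difference of 1 pair. This SD exceeded the SE over spots, but with 1 array a group it measures departure from additivity, not spread between replicates. It therefore cannot say whether the 2 arrays of a pair differ. The 2 secondary arrays were 0.33 apart and the 2 primary arrays differed by -1.14, or by -0.50 with no scaling.

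Because miR-210 was chosen for being higher at passage 1, that difference is given without a test. Passage and days in culture went together and cannot be told apart. Its mean level went from -1.68 log2 at passage 0 to 0.86 at passage 1, a difference of 2.54 (SE 0.29, n = 2 arrays per passage) or 5.81-fold. In the pair titled control the level was 4.39-fold higher at passage 1, a log2 difference of 2.13. In the pair titled NFIA OE it was 7.69-fold higher, a log2 difference of 2.94. The 2 probes gave close values, with 2.05 and 2.22 in the former pair, and 2.85 and 3.04 in the latter, for A_54_P1443 and A_54_P1444. Leaving out either array of one pair leaves the value of the other pair, so the fold of 5.81 rests on values of 4.39 and 7.69.

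Among the 153 miRNAs, miR-210 ranked 3 by the passage difference over both pairs. miR-9* was just above it at 2.60 and let-7d just below at 2.39, and the gap between these neighbours is smaller than the SE. In the pair titled NFIA OE it was the highest of the 153, where 5.23% of miRNAs were at least 2-fold higher. In the pair titled control it ranked 7, where 10.5% were. Both secondary arrays lay above both primary arrays for 23 of the 153 miRNAs, or 15%. The gap between its lower secondary and its higher primary array was 1.80 log2, or 3.49-fold, which ranked 2 among the 153. The median miRNA differed by -0.39 between the passages on this scale, and relative to it miR-210 was 2.93 higher. By pair that was 2.55 (titled control) and 3.34 (titled NFIA OE).

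**Figure D2:**
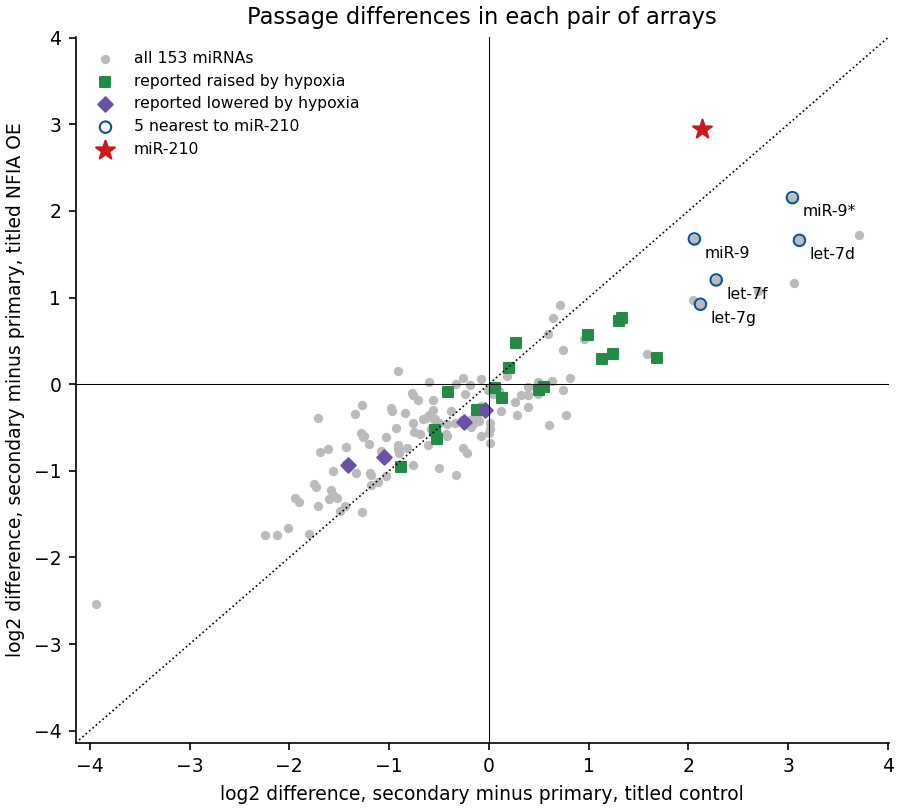
Log2 passage difference of each of 153 miRNAs in the pair titled control (x axis) and in the pair titled NFIA OE (y axis), with the line of equality dotted. miR-210 lies at 2.13 and 2.94, above the line, while the 5 miRNAs nearest to it in pattern lie below it.

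The larger difference in the pair titled NFIA OE depends on the scaling. As processed intensity, with no scaling between arrays, miR-210 was 11.6-fold higher at passage 1 for the titled control arrays and 10.9-fold for the titled NFIA OE arrays, which turns their order. The scaling factor itself differed, since the 75th percentile was 2.65 times as high on the secondary as on the primary array for titled control and 1.41 times for titled NFIA OE. In the authors' deposited table, which holds 1 linear intensity per miRNA, miR-210 was at 5.43 (primary, titled control), 2.25 (primary, titled NFIA OE), 36.3 (secondary, titled control) and 26.6 (secondary, titled NFIA OE). The scanner's total signal for miR-210 was 110, 76.6, 1222 and 826 units in the same order. That is 20.3, 34.1, 33.7 and 31.0 times the deposited value. These factors were computed from miR-210 alone, so they do not show how the deposited table was scaled. On the log2 scale the deposited values give passage differences of 2.74 for titled control and 3.57 for titled NFIA OE.

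On the scaled values, other miRNAs that were higher at passage 1 mostly showed the opposite order of the pairs. Of the 19 other miRNAs that limma called higher at passage 1 in the fit over both pairs, 17 had the larger difference in the pair titled control, and the remaining 2 were miR-582-5p (0.71 for titled control, 0.91 for titled NFIA OE) and miR-689 (0.64 and 0.77). On the primary arrays, 4 of the 19 had a lower level on the array titled NFIA OE, namely miR-9, miR-551b, miR-582-5p and miR-689. Over all 153 miRNAs the median title difference on the primary arrays was -0.008. The median passage difference was -0.41 for titled control and -0.40 for titled NFIA OE. With no scaling miR-210 too had the larger difference for titled control, at 3.54 against 3.44. Its contrast with the 17 therefore depends on the scaling. An interaction of title and passage had no test here, since with 1 array a group it is all the residual there is.

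The title comparison asks whether miR-210 differs between NFIA-overexpressing and control cells. miR-210 was lower on the arrays titled NFIA OE in both pairs, and the difference did not pass the test over all miRNAs. At passage 0 it was 2.21-fold lower, a log2 difference of -1.14, where 3.27% of miRNAs were at least 2-fold lower. At passage 1 it was 1.26-fold lower, a log2 difference of -0.33, where 0.654% were at least 2-fold lower. Over both passages the mean level was -0.78 on the arrays titled NFIA OE and -0.04 on those titled control, a difference of -0.74 (SE 0.29, n = 2 arrays with each title, unadjusted p = 0.0135 and adjusted p = 0.148 by limma). The unadjusted 95% interval ran from -1.32 to -0.16. It uses the SD shared by all miRNAs, although miR-210 itself departed from additivity more than most of them. limma called 4 of the 153 miRNAs by title, or 2.61%, and miR-210 was not one of them.

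By size of the title difference miR-210 ranked 3 from the lowest at passage 0 and 22 from the lowest at passage 1. The title differences at the 2 passages were 0.81 log2 apart, which is the 22nd largest such change in size among the 153. As unscaled intensity the array titled NFIA OE had 0.707 times the signal of the array titled control at passage 0 and 0.66 times at passage 1, so that the 2 ratios lay closer together than on the scaled values. The direction was the same in each of 11 other settings, with limma adjusted p-values from 0.0513 to 0.999. The p-value rests on departure from additivity pooled over all 153 miRNAs, which may be technical, and not on a spread between replicates.

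**Figure D3:**
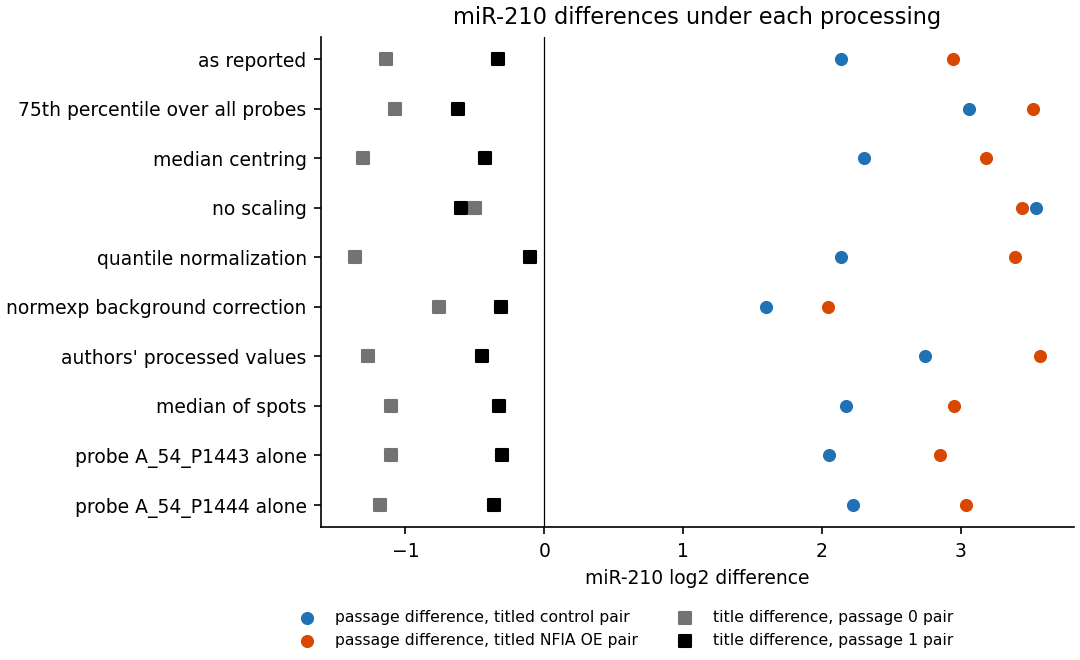
miR-210 log2 differences in each pair of arrays (x axis) under each way of processing the same arrays (y axis): circles are passage 1 minus passage 0 and squares are titled NFIA OE minus titled control. Every circle lies above 0 and every square below it, and with no scaling the pairs titled control and titled NFIA OE change order.

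The miRNAs whose pattern was most like that of miR-210 were miR-9*, miR-9, let-7d, let-7f and let-7g. Likeness was measured as the root-mean-square difference between log2 profiles over the 4 arrays, each centred on its own mean, and these 5 had the smallest of 152. The difference was 0.46 for miR-9*, 0.50 for miR-9, 0.74 for let-7d, 0.75 for let-7f and 0.83 for let-7g, against a median of 1.53. The sixth miRNA, let-7a, stood at 0.86, close to the last one taken. With 4 arrays in 1 passage contrast this likeness is a description, and it mostly finds other miRNAs that were higher at passage 1. miR-9*, miR-9 and let-7d were among the nearest 5 in 9 of 9 other settings, let-7f in 6 and let-7g in 5.

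Their RefSeq mature sequences are shown with the seed in capitals to show whether they share that of miR-210. The array's miR-9 and miR-9* are the older names of miR-9-5p and miR-9-3p, and its let-7 names are those of the 5p strands.
miR-9-3p: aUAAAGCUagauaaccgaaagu
miR-9-5p: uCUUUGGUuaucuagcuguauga
let-7d-5p: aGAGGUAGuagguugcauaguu
let-7f-5p: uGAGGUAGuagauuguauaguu
let-7g-5p: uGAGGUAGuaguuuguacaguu
The 3 let-7 miRNAs share the seed GAGGUAG, and none of the 5 has that of miR-210.

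The 2 strands of miR-9, a miRNA that neural progenitors make in quantity, had the profiles nearest to miR-210. Once each profile was centred on its mean, miR-9* differed from miR-210 most on the 2 primary arrays. miR-9 differed most on the primary array titled NFIA OE, at -1.0 against -1.84 for miR-210, and least on the primary array titled control, at -0.87 against -0.70. The level of miR-9* was -0.85 on the primary array titled control, -0.79 on the primary one titled NFIA OE, 2.20 on the secondary one titled control and 1.37 on the secondary one titled NFIA OE. It thus differed by 0.06 between the 2 primary arrays, where miR-210 differed by -1.14. miR-9 was at 0.13, 0.01, 2.19 and 1.68 in the same order. let-7d belongs to the let-7 family, which accumulates as stem cells mature. Its levels were -1.91, -0.99, 1.20 and 0.67, so that on the primary arrays it was higher on the one titled NFIA OE, the opposite of miR-210.

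**Figure D4:**
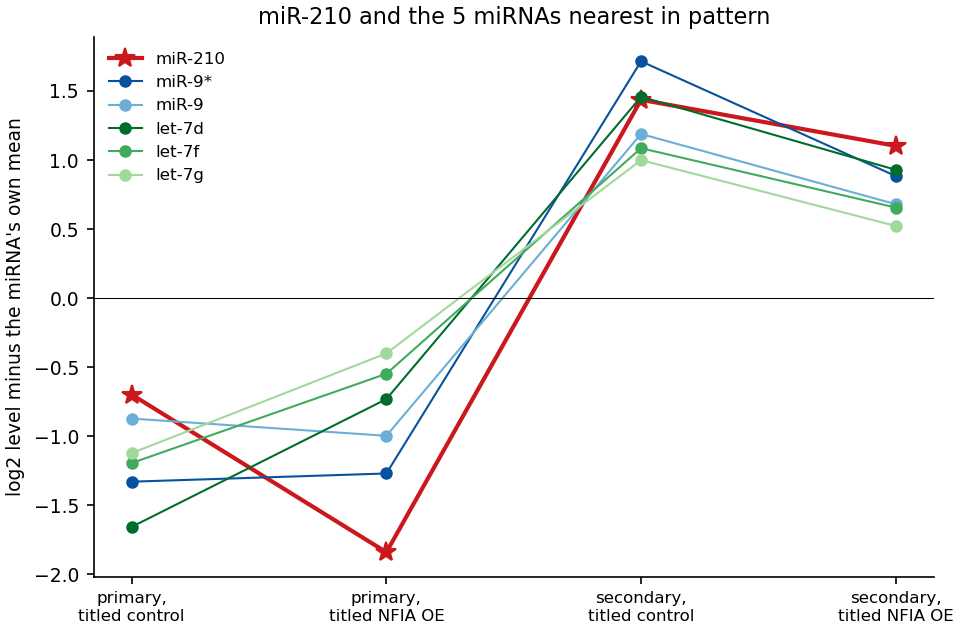
Log2 level of miR-210 and of the 5 miRNAs nearest in pattern on the 4 arrays, each minus its own mean. All 6 are higher on both secondary arrays, and miR-210 is the one with the lowest value on the primary array titled NFIA OE, at -1.84.

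Other miRNAs reported to be raised by low oxygen in cultured cells, a list of 19 without miR-210, had smaller differences. These went in both directions in the fit reported, and how many were called depended on the scaling. Of these, 17 were detected on all arrays. Between passages limma called 6 of the 17 higher and 1 lower at adjusted p under 0.05, while the other 10 did not pass, beside 13.1% of all 153 miRNAs called higher and 32.7% called lower. The list's median difference was 0.22, against -0.39 for all 153 miRNAs tested. The largest was that of miR-27a, a member of the miR-23, miR-27 and miR-24 clusters, at 1.05 (SE 0.29, limma adjusted p = 0.0019, higher in 2 of 2 pairs). miR-21, known from growth and glial responses, rose by 1.02 and miR-322, the mouse counterpart of human miR-424, by 1.0 (limma adjusted p = 0.00269 and 0.00325). miR-181a at 0.79, miR-23a at 0.78 and miR-125b-5p at 0.71 were called as well (limma adjusted p = 0.0198, 0.0213 and 0.0388).

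The largest difference in the list, 1.05, was below the 2.54 of miR-210. Since miR-210 was chosen for being strongly higher at passage 1, this order was close to given in advance. All 6 members called higher were higher at passage 1 in each of 10 other settings, although they were called in 7 to 9 of them. miR-93, of the miR-106b cluster, fell by 0.92 (limma adjusted p = 0.00656) and was called in 5 of 10 other settings, and with no scaling it stood at 0.04. Members that were not called included miR-24 at 0.19, miR-26a at 0.22 and miR-107 at -0.53. miR-155 was detected on 2 arrays and miR-192 on none (0). With the authors' processed values 10 of the list were called, each of them higher, and with the all-probe percentile 7 were, again each higher. The count was 3 higher and 1 lower with normexp background correction, and 0 with no filter on dim probes, where 6 passed an unadjusted p under 0.05. Both miR-181a and miR-125b-5p also belong to the list of neural markers.

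Of 6 miRNAs reported to be lowered by low oxygen, 4 were detected on all arrays. All 4 had a lower value at passage 1, with a median of -0.64, against -0.39 for all 153 miRNAs, of which 32.7% were called lower. limma called miR-20b at -1.17 and miR-20a at -0.94 (limma adjusted p = 0.000489 and 0.00559), both members of the miR-17 clusters tied to proliferation. miR-15b at -0.34 and miR-16 at -0.17 did not pass. These directions shift with the scaling, since the list's median was 0.31 with no scaling and 0.11 when the scaling percentile was taken over every probe, and none was called there (0 in both, with 0 at an unadjusted p under 0.05). Relative to the median miRNA the list's median was -0.25 and 1 member was called lower. miR-20a itself stood at 0.01 with no scaling, and miR-20b was lower in each of 10 other settings. miR-199a-5p was detected on 2 arrays and miR-200b on none (0).

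The arrays carried neural miRNAs. All 7 markers of the neural list (miR-9, miR-9*, miR-124, miR-125b-5p, miR-92b, miR-153 and miR-181a) were detected on every array. The list was drawn up for neural stem and progenitor cells, but miR-124 in it is a neuronal miRNA. Their summed level, as linear intensity over the 75th percentile, was 7.37 (titled control) and 9.28 (titled NFIA OE) at passage 0, then 19.8 and 14.9 at passage 1. Of 9 miRNAs of pluripotent cells, 8 and 9 were detected at passage 0, and 1 and 7 at passage 1, in the same order. The one detected on every array was miR-302b. Their summed level was 4.16 and 3.44 at passage 0 and 0.446 and 0.55 at passage 1. In all these sums, probes dimmer than the array's lowest detected probe were set to its signal. An undetected miRNA therefore still counts. The liver marker, detected nowhere, stood at 0.106 and 0.0637 at passage 0 and 0.0495 and 0.0517 at passage 1. The pluripotent sums at passage 1 thus lie close to what undetected miRNAs alone would give, and that floor itself was lower at passage 1. The summed levels of the neural and pluripotent lists thus moved with passage in opposite directions, and their part in the miR-210 difference was not tested. The neural list did not move as one. Between passages miR-9, miR-9*, miR-125b-5p and miR-181a were called higher, whereas miR-124 fell by 1.28 and miR-92b by 1.05 (limma adjusted p = 0.000133 and 0.00189), and miR-153 at -0.65 did not pass (limma adjusted p = 0.0612). Neither miR-124 nor miR-92b was called with no scaling, with the all-probe percentile or with the authors' processed values. None of the 10 markers of muscle, blood, endothelium and liver was detected on any array, and of 3 epithelial markers miR-375 was detected on 1.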

How the data were processed

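The deposited scanner files hold spot intensity extracted with Feature Extraction 10.5.1.1, with background subtracted after spatial detrending and no scaling from array to array, per the file headers. Each of 4 one-colour (Cy3) arrays had 13000 spots outside the controls, for 1857 probes. Spots with outlier flags (265 to 300 per array) were left out, and the rest were averaged per probe. A probe was detected where 50% or more of its spots had the well-above-background flag, and a miRNA where 1 probe was detected. Intensities were divided by the array's 75th percentile over probes detected on all arrays and then taken to log2. A miRNA's level is the mean over probes detected on every array. Their number limits the precision.

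limma 3.58.1 in R 4.3.3 fitted title and passage as additive terms over the 4 arrays and 153 miRNAs, with 1 residual degree of freedom per miRNA. Its empirical Bayes prior was infinite, so every miRNA shares 1 residual SD, and p-values were adjusted by Benjamini-Hochberg over all 153. The fit was tested on simulated data with additive effects and 1 common SD. Such data hold no interaction of title and passage, so that test says nothing about p-values where such an interaction is present. Nothing says that samples came from separate cultures. A p-value here is scaled by departure from additivity in these 4 samples, which may be technical, and not by spread between replicates.

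Named miRNAs were miR-210, the 5 nearest in centred profile, its neighbours in the order of passage differences, members called or farthest out in 2 hypoxia lists, and fixed cell type markers. miR-582-5p, miR-689, miR-551b, let-7a and the uncalled list members were named after their values were seen. The miRNA and lists were chosen with earlier results of these data known. Sequences are from RefSeq (GRCm38.p6), matched by miRNA name, for all 7 mature strands sought. Probe sequences were not used here.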

Additional observations from a re-analysis of the deposited data

How the results depend on the processing

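The direction of every miR-210 difference was the same in all settings tried. Its passage difference (2.54) was 3.29 with the all-probe percentile and 3.49 with no scaling. It was 1.82 with normexp background correction, which adds an offset of 50 to each spot and so shrinks log2 differences of dim spots. With the authors' processed values it was 3.15, and relative to the median miRNA, a setting added after seeing the data, it was 2.93. In the pair titled control (2.13) it was 3.06, 3.54, 1.60 and 2.74 in the first 4 of these, and in the pair titled NFIA OE (2.94) it was 3.52, 3.44, 2.04 and 3.57, and 3.39 with quantile normalization. Without each array in turn it was 2.13 to 2.94, and the title difference -1.14 to -0.33, with no residual degree of freedom and so no test. The passage 0 title difference (-1.14) was -0.50 with no scaling. The title difference was not called in any of 11 other settings.

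By passage 70 miRNAs were called, 30 with the all-probe percentile, 21 with no scaling and 108 with detection on at least 1 array. These were 20 higher and 50 lower as reported, 25 and 5 with the all-probe percentile, 22 and 39 with median centring, 20 and 1 with no scaling, 21 and 30 with quantile normalization, 14 and 73 with normexp and 39 and 17 with the authors' processed values. By title 4 were called, 2 with the all-probe percentile, with no scaling, with quantile normalization and with no filter, 7 with median centring and 0 without passage in the fit (2 at an unadjusted p under 0.05). Of the miRNAs reported as raised by hypoxia 7 were called, 6 higher and 1 lower, against 10, each of them higher, with the authors' processed values, and 4 with normexp and 0 with no filter. Of those reported as lowered 2 were called, 0 with the all-probe percentile, no scaling or the authors' processed values, and 1 with no filter or relative to the median miRNA. The cause was not tested. The fit reported already pairs the arrays by passage. Without passage in it the title difference of miR-210 was -0.74 with an SE of 1.23 (limma adjusted p = 0.989). The labels give no replicate numbers to pair by.

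Signal limits the primary arrays most, where the miR-210 probes averaged 38.3 to 108 units and the lowest detected probe 16.6 to 17.7.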
